A study of Saccharomyces cerevisiae and Saccharomyces paradoxus with 173 samples.

Results

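The 16 samples of Saccharomyces cerevisiae strain YPS2067 were chosen by strain. They were taken at 0, 24, 48, 63, 135, 152, 176, 194, 218, 227, 251, 260, 284, 301, 325 and 345 min after release from a pheromone arrest. They were set against 139 samples of the other 8 S. cerevisiae strains: 18 each of YPS183, YPS2055, YPS2066, YPS2073, YPS2079 and YPS3060, 16 of YPS3137 and 15 of YPS2060. The rest of the series, 18 samples of the S. paradoxus strain YPS3395, entered only the shared estimate of scatter. All strains are natural isolates, with no allele or plasmid named in the labels. Each strain was a single culture grown in synthetic dextrose minimal medium at 30 °C. It was held in late G1 with 4 µM alpha factor for about 75 min, washed, and resuspended at 18 °C in 18 flasks. The deposited values of YPS2067 rest on 32 spotted oligonucleotide arrays, 2 per sample with the dyes swapped. The second channel held a common reference, RNA of strain YPS183 growing unsynchronised in rich medium.

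Budding yeast transcribes its cell cycle genes in waves. Alpha factor binds a receptor on a-type cells, which switch on mating genes and stop before S phase. After release, the SBF and MBF factors switch on G1 cyclins, bud and wall genes and the enzymes of DNA replication. Histone genes follow in S phase, then a cluster driven by Mcm1 and Fkh2 that carries mitotic cyclins and cytokinesis genes. As cells leave mitosis, Swi5 switches on genes for wall remodelling and for separating the daughter from its mother, and genes with an early cell cycle box prepare the next round of replication.

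Values below are log ratios of 6172 genes, read as log2 here, although no source names the base. The direction is likely sample over reference, since AGA1 and FUS1, which pheromone induces, stood at 1.89 and 0.86 at 0 min and at or below 0.23 afterwards. The a-cell gene lists and the level of MF(ALPHA)1, the pheromone of the opposite mating type (-0.38 to 1.09, median 0.27), were checked against the labelled arrest: the a-cell genes were high at 0 min and MF(ALPHA)1 did not pass the test over time. Sample medians of YPS2067 lay between -0.015 and 0.024, and single values between -10.6 and 5.90, with 15 beyond 8 in size. In bulk RNA, fewer cells in a phase and less RNA per cell cannot be told apart.

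Some samples of YPS2067 stood apart from their neighbours in time. The 194 min sample carried histone genes at a mean of 1.15, against -0.31 at 176 min and -1.15 at 218 min. Over 214 cell cycle genes, each centred on its own mean, it was most like the 135 min sample (r = 0.69) and unlike the next one at 218 min (r = -0.54). The 6 samples from 176 to 260 min were hybridised to slides of another number series. They had a wider spread over all genes (SD 0.876 to 1.09, against 0.562 to 0.765 in the other 10). The 4 samples from 284 to 345 min differed from the 12 earlier ones in genes with no part in the cycle: QDR2, a multidrug transporter, lay between 1.27 and 2.34 there and between -3.19 and -0.64 before. Open reading frames of the Ty3 retrotransposon had medians of -0.45 to 1.22 in the last 4 samples, against 2.30 to 4.65 in the earlier ones. The 260 and 284 min samples were not alike (r = -0.09), while neighbours within the last 4 had r between 0.50 and 0.68. Nothing in the labels accounts for these differences, and whether the samples labelled 194 min and 284 to 345 min were taken at those times cannot be told from these data. Total counts of genes differing over time, in level or in shape are given both ways where they move by over 1.5 times without these samples. So are most counts by gene list for time and level. Shape counts by list, peak windows, peak times against the other strains and returns of early genes are given only with these samples.

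**Figure D1:**
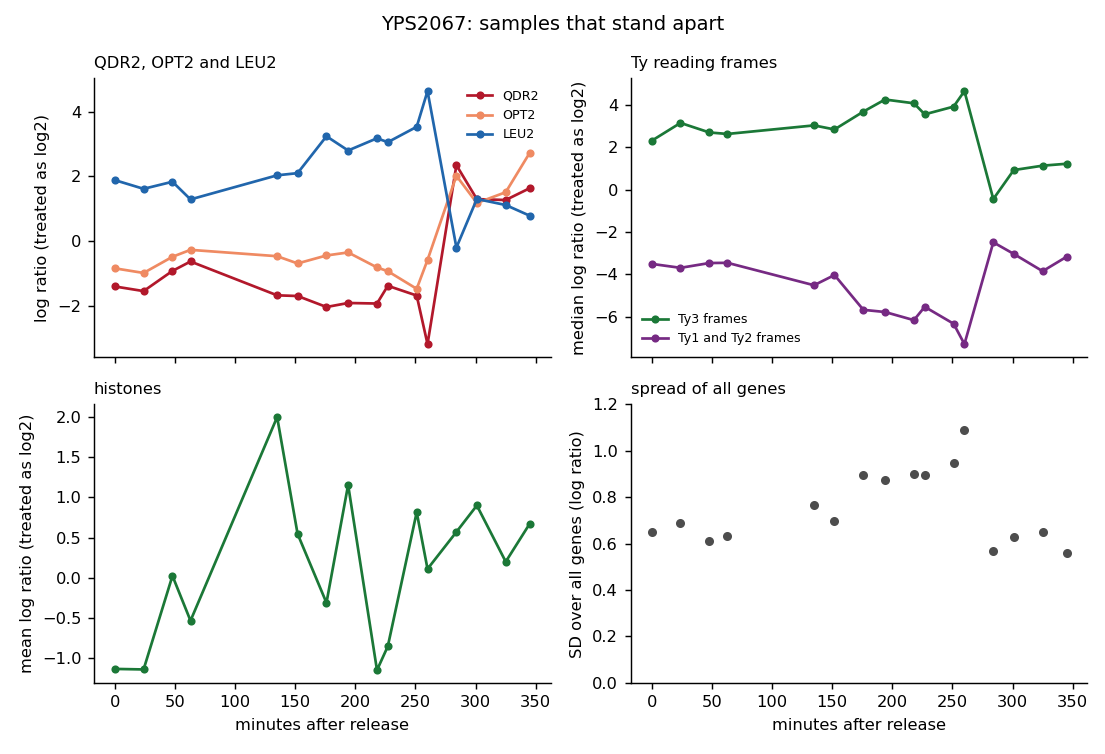
Values by sample in YPS2067 against minutes after release: log2 ratios of QDR2, OPT2 and LEU2, medians of Ty3 and of Ty1 and Ty2 frames, the histone mean, and the SD over all genes. QDR2 is at 1.27 or more in the last 4 samples and at -0.64 or less before, the histone mean is 1.15 at 194 min, and the SD is highest, at 1.09, at 260 min.

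The first question was in what order genes peaked in YPS2067. In a limma fit of smooth curves over all strains, 512 of 6172 genes varied with time (8.30%; Benjamini-Hochberg adjusted p under 0.05 and a fitted range of at least 1), and 634 (10.3%) passed the adjusted p alone. A fitted peak is the sampled time at which the fitted curve is highest, so no peak could fall between 63 and 135 min. Of the 512 genes, 92 peaked at 0 min and 88 at 24 to 63 min. A further 36 peaked at 135 to 152 min and 59 at 176 to 227 min, and 237 (46.3%) peaked between 251 and 345 min. The median fitted ranges of these windows were alike, between 1.36 and 1.56, against 0.60 over all 6172 genes. The single times with most peaks were 0 min (92 genes), 345 min (78), 63 min (68) and 325 min (49). With 1 culture, the p-values cover only the scatter of samples around the curves. The count was 279 without the samples from 284 min on, of which 249 were among the 512, and 263 with a term for the slide series.

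**Figure D2:**
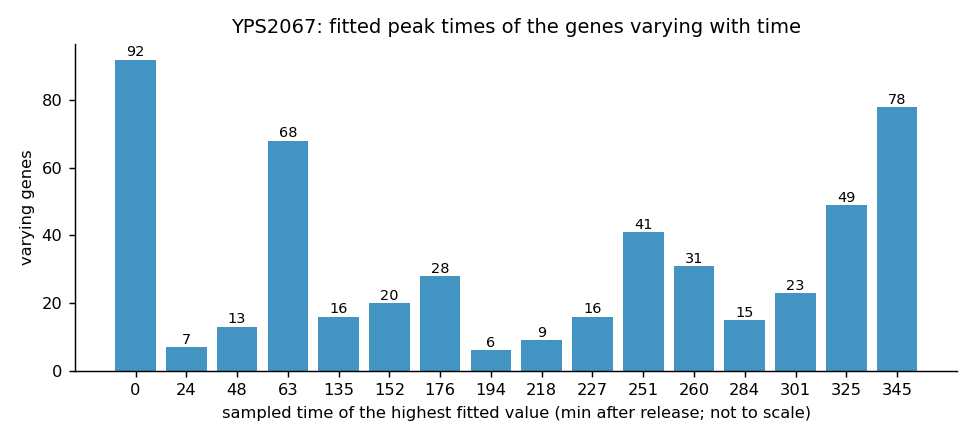
Number of varying genes of YPS2067 (y axis) by the sampled time of their fitted peak in minutes after release (x axis). The bars are tallest at 0 min with 92 genes, 345 min with 78 and 63 min with 68, and shortest at 194 min with 6.

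The fitted mean of the pheromone response list peaked at 0 min, replication and repair at 63 min, histones at 135 min, and the early cell cycle box list of M/G1 at 227 min. The G2/M list peaked at 176 min, after the histones and before the early cell cycle box genes. The daughter and wall list of M/G1 had its highest sample at 227 min, at -0.15, after -1.37 at 194 min, while its fitted curve was highest at 345 min. It moved to 227 min without the samples from 284 min on and to 218 min without the 194 min sample. The G2/M peak moved to 218 min with a smoother curve of 5 degrees of freedom and to 152 min without the 135 min sample. It moved to 260 min without the 152 or the 176 min sample, or without those from 284 min on. The histone peak moved to 284 min without the 135 min sample and to 152 min without the 176 min sample. The pheromone peak moved to 24 min without the 0 min sample.

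**Figure D3:**
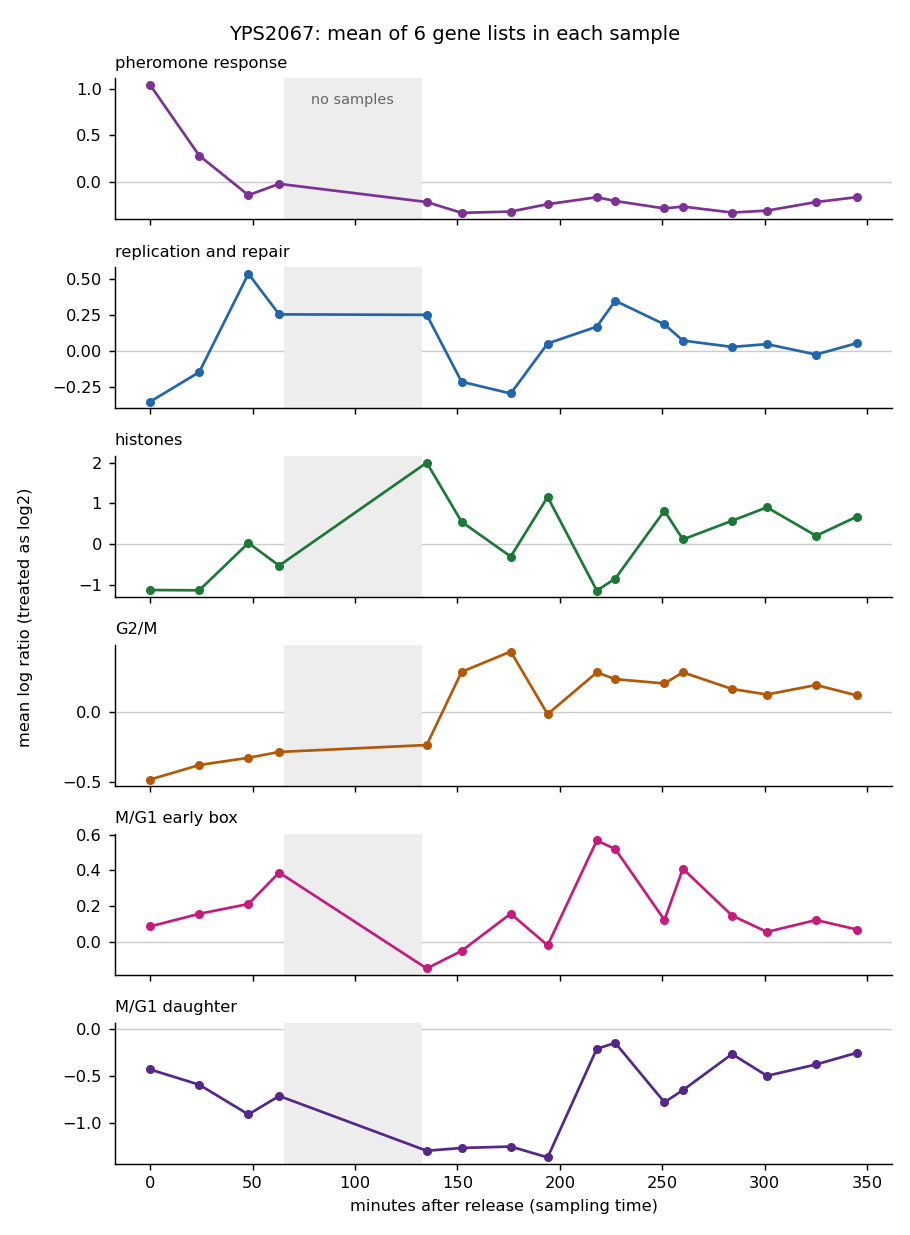
Mean log2 ratio of 6 gene lists (y axes) in each YPS2067 sample against minutes after release (x axis), with the grey band marking the gap from 63 to 135 min. The pheromone list is highest at 0 min (1.04), replication at 48 min (0.53), histones at 135 min (2.00) and G2/M at 176 min (0.43).

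Genes of the pheromone response and of a-type cells were highest at the arrest. Of 27 measured pheromone genes, 14 varied, against 8.30% of all genes, and these 14 all peaked at 0 min, as did 92 of the 512 varying genes. Without the 0 min sample 1 of the 27 varied, against 357 of all 6172 genes. The 14 include the agglutinin anchor AGA1, the cell fusion genes FUS1, FUS2, PRM2 and FIG1, the receptor desensitiser SST2, the G protein subunit GPA1 and the cell cycle inhibitor FAR1. Of 6 a-cell genes 4 varied, against the same 8.30%: the a-factor precursors MFA1 and MFA2, the alpha factor protease BAR1 and the agglutinin subunit AGA2. The receptor gene STE2 and the a-factor exporter gene STE6 did not pass.

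AGA1 stood at 1.89 at 0 min, 0.23 at 24 min and -1.36 at 48 min, then between -2.88 and -1.26. FIG1, a membrane protein of mating cells, stood at 2.53, 1.21 and -0.29 at the first 3 times and between -0.97 and 0.42 later. Both had left the arrest level within 48 min. Both calls rest on the first sample: the limma adjusted p was 0.0018 for AGA1 and 0.0038 for FIG1, and 0.42 and 0.62 without 0 min. BAR1 was 0.63 at 0 min and -1.76 at 24 min, and stayed between -3.33 and -1.15 (adjusted p = 0.0020; 0.33 without 0 min, 0.063 with a slide series term). PRM5, another pheromone-regulated membrane protein, was 1.86 and 0.42 at the first 2 times and between -0.90 and 0.12 later (adjusted p = 1.5e-05; 0.30 without 0 min).

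The a-factor genes were still above 0 at 63 min, when AGA1 was at -1.26. MFA2 stood at 1.78, 2.02, -0.61 and 1.13 at 0, 24, 48 and 63 min, and between -2.90 and -1.43 from 135 min on (limma adjusted p = 3.0e-06). MFA1 went the same way, with 1.31, 1.44, -0.59 and 0.70, and then -4.07 to -2.28 (adjusted p = 1.1e-08). In both genes the 48 min sample lay below its neighbours on either side. AGA2 was 1.01 at 0 min, 0.11 at 24 min and between -3.26 and -1.07 later (adjusted p = 1.1e-08). All 3 kept their calls under every alternative run for the test over time.

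The G1/S wave reached its top at 48 and 63 min. Of 45 measured replication and repair genes 9 varied, against 8.30% of all genes. Of these, 8 had their fitted peak at 63 min, against 68 of all 512 varying genes. RNR1, the large subunit of ribonucleotide reductase, had the widest range of the list (4.64), followed by the sliding clamp POL30 (2.18), the single-strand binding subunit RFA2 (1.99) and the DNA polymerase epsilon subunit POL2 (1.60). The rest at 63 min were the mismatch repair gene MSH6 (1.55), the polymerase subunits POL3 (1.48) and DPB2 (1.30) and the ligase CDC9 (1.25). SPT21, needed for histone transcription, peaked at 227 min (1.10). The other 36 members did not pass both criteria. The count was 5 of 45 without the samples from 176 to 260 min, and 6 without those from 284 min on or without 0 min. Of all 6172 genes 343, 279 and 357 varied in these settings.

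RNR1 stood at -2.24, -0.90, 2.32 and 1.53 at 0, 24, 48 and 63 min, -1.62 at 176 min, 1.50 at 227 min, and 0.32 to 0.77 from 251 min on (limma adjusted p = 3.8e-05). It was lowest at the arrest, highest at 48 min and high again at 227 min. POL30 stood at -0.33 at 0 min, 1.67 at 48 min, -0.85 at 176 min and 1.17 at 227 min (adjusted p = 0.0095; 0.074 without the samples from 284 min on). Of 30 genes for budding and the wall, 9 varied, against 8.30% of all genes, with peaks spread over 0, 63, 251, 260 and 301 min. Without the 0 min sample 3 varied, against 357 of all 6172 genes. The G1 cyclin CLN2 stood at -1.57 at 0 min, 1.00 at 48 min, -1.34 at 176 min and 0.68 at 227 min (adjusted p = 0.0016; 0.098 after quantile normalization). The mannosyltransferase MNN1 was -0.98 at 0 min and between 0.48 and 2.33 at all later times, with no trough near 176 min (fitted range 3.19; adjusted p = 0.57 without 0 min).

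Early peaks also came from genes outside the cycle lists. The fatty acid desaturase OLE1 stood at 0.76, 2.42, 1.63 and 2.12 at the first 4 times and at -1.67 at 176 min (limma adjusted p = 2.0e-05). NCA3, a wall protein of the SUN family, was 1.22, 2.90, 2.99, 2.65 and 2.22 up to 135 min and between -0.36 and 0.96 afterwards (adjusted p = 2.2e-06). Both kept their calls under every alternative run for the test over time. The phosphate transporter PHO84 was highest at 24 min, at -0.37, and lowest at 260 min, at -5.12 (adjusted p = 0.0045). It did not pass without the samples from 176 to 260 min (0.61), with a slide series term (0.77) or after quantile normalization (0.29).

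Histone genes had a single early top in the 135 min sample. Their mean was 2.00 there, 0.02 at 48 min and -1.13 at 0 min. Of 9 measured, 3 passed, against 8.30% of all genes: the H2B genes HTB1 and HTB2, both with fitted peaks at 135 min, and the linker histone HHO1. Without the 194 min sample 5 of 9 passed, without 284 to 345 min 2, and without 0 min 0; after quantile normalization 1 did. HTB2 stood at -1.81, -1.74, 0.18 and -0.65 at the first 4 times, 1.86 at 135 min, 0.62 at 152 min and -0.42 at 176 min. It then read 0.75 at 194 min, -1.15 at 218 min, -1.25 at 227 min and 0.67 at 251 min. The high 194 min value lies between low ones. The limma adjusted p was 0.012 for HTB1 and 0.011 for HTB2. It was above 0.05 for both without the 0, 24 or 135 min sample (0.063 to 0.10). HHO1 followed another course, with -1.17 at 24 min and 1.19 to 1.31 at 194, 251, 284 and 301 min (adjusted p = 0.032). Leaving out 24 min gave 0.19 for HHO1 and leaving out any of 0, 63, 251, 284, 301 or 345 min gave 0.051 to 0.091. HTA1 (range 2.56, adjusted p = 0.22) did not pass. The probes of near-identical histone pairs cannot be told apart.

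GAS3, a wall glucanosyltransferase, and the putative aldehyde reductase AAD4 also peaked in this window. GAS3 lay between -1.52 and -1.24 up to 63 min, and stood at 1.12, 0.92, 0.59 and 1.23 from 135 to 194 min (limma adjusted p = 4.4e-06). It dropped to -0.28 at 218 min and -0.59 at 227 min and then lay between 0.60 and 1.13, much as HTB2 did. AAD4 was 2.43 at 135 min and 2.59 at 194 min, and between -0.09 and 0.14 from 284 min on (adjusted p = 3.3e-05).

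The mitotic wave began at 152 min and was highest at 176 min. Of 36 measured G2/M genes 9 varied, against 8.30% of all genes (6 with a slide series term, against 263 of all 6172). Of the 9, 6 peaked at 176 min, against 28 of all 512 varying genes. These 6 were the mitotic cyclins CLB1 (2.11) and CLB2 (3.02), the transcription factor SWI5 (1.13), the polo kinase CDC5 (2.24) and the cytokinesis genes IQG1 (1.65) and HOF1 (1.41), with fitted ranges in brackets. ALK1, a haspin-like kinase, peaked at 152 min, and CHS2, the chitin synthase of the primary septum, at 194 min in the fitted curve. The bud site gene BUD4 peaked at 345 min. Of 34 genes of S phase and G2, 3 varied, a share near the 8.30% of all genes, and 1 did without the samples from 284 min on: the spindle gene ASE1 and the kinetochore gene NUF2, and the separase ESP1.

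CLB2 stood at -1.33 at 0 min, stayed at or below 0.00 through 135 min, and then read 1.37, 2.11 and 0.59 at 152, 176 and 194 min (limma adjusted p = 1.5e-05). CDC5 stood at -1.27 at 0 min and at 0.50, 1.29 and 0.06 at the same 3 times (adjusted p = 1.4e-06). The 194 min value was low in both. CHS2 was at -1.08 or lower in all samples up to 135 min and 1.30, 1.85, 0.38 and 1.98 at 152, 176, 194 and 218 min (adjusted p = 3.4e-05; 0.11 with a slide series term). CLB1 was highest at 152 min, at 0.14, and lowest at 63 min, at -1.95 (adjusted p = 0.0041; 0.093 after quantile normalization). SWI5 had a narrower course, with -0.73 at 63 min and 0.52 at 176 min (adjusted p = 0.0094). It did not pass without the 0 min (0.060) or 63 min (0.061) sample or with a slide series term (0.085). CDC20, also of this cluster, did not pass. NCE102, a plasma membrane organiser outside the list, stood at -0.79 at 135 min and at 1.54 and 2.19 at 152 and 176 min (adjusted p = 0.00028).

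**Figure D4:**
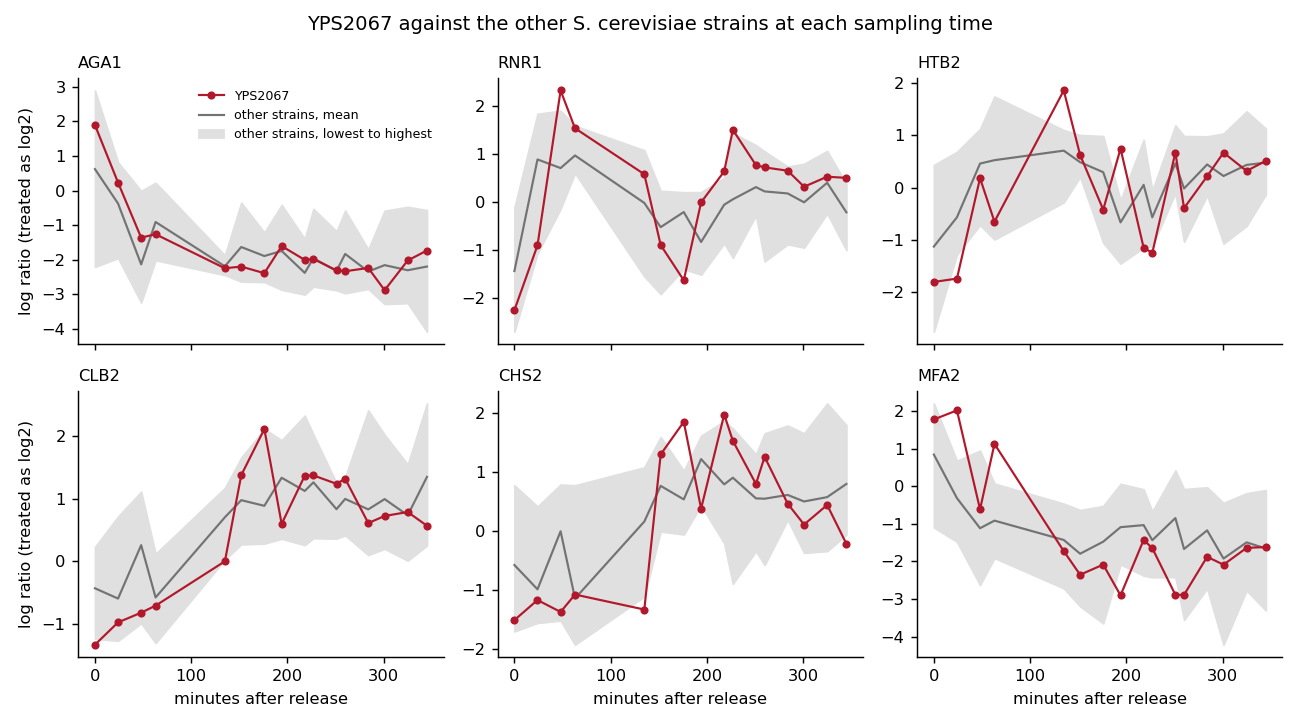
Log2 ratios of AGA1, RNR1, HTB2, CLB2, CHS2 and MFA2 against minutes after release in YPS2067 (red points and line), with the mean of the other strains (grey line) and their lowest to highest value (grey band). RNR1 reaches 2.32 at 48 min in YPS2067 and HTB2 1.86 at 135 min, both above the grey band.

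Genes of mitotic exit and the next G1 came after the mitotic wave. Of 11 early cell cycle box genes 2 varied, against 8.30% of all genes (4 without the 194 min sample, 1 without those from 176 to 260 min): the G1 cyclin CLN3, with a fitted peak at 227 min, and the replicative helicase subunit MCM6, at 218 min. CLN3 stood at 1.65 at 0 min, 0.08 at 48 min and 1.01 at 194 min, and was between 1.87 and 2.39 from 218 to 260 min and between 0.60 and 1.00 after that (limma adjusted p = 7.6e-05). Its high values all lie in the slides from 176 to 260 min, and without those samples or with a slide series term the adjusted p was 0.70 and 0.57. MCM6 was highest at 227 min, at 0.55, and lowest at 0 min, at -0.98 (adjusted p = 0.0066; 0.091 without 0 min). The helicase subunit MCM3 (0.062) and the loading factor CDC6 (0.057) did not pass.

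In the daughter and wall list 11 of 24 genes varied, against 8.30% of all genes. They had several patterns: 3 peaked at 0 min, 3 at 176 to 227 min and 5 at 251 to 345 min. The list includes the a-factor gene MFA2, which had its widest range (4.82) and peaked at 0 min. The count was 6 without the samples from 284 min on, 4 without those from 176 to 260 min and 7 after quantile normalization. Of all 6172 genes 279, 343 and 474 varied in these settings. The wall protein PIR1 lay at -2.69 at 135 min and -2.27 at 194 min, and at 1.71 and 2.28 at 218 and 227 min (limma adjusted p = 0.011). It did not pass without 135 min (0.064), without 176 to 260 min (0.10) or with a slide series term (0.053). EGT2, a wall glucanase for cell separation, was between -2.79 and -1.70 up to 194 min. It was -0.20 and -0.21 at 218 and 227 min, and highest at 345 min, at 0.18 (adjusted p = 0.013; 0.055 without 345 min and 0.20 without the last 4 samples). DSE1, a daughter cell protein, was low at all times up to 260 min (-4.68 to -2.36), 218 and 227 min included, and between -1.77 and -0.41 from 284 min on. Its adjusted p was 0.046, between 0.051 and 0.23 when any 1 of 13 samples was left out, and 0.62 without the last 4. The chitinase CTS1, with the same late step (adjusted p = 0.47), did not pass.

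Some early genes came back. Among the 88 genes that peaked at 24 to 63 min, 23 had a second top at least 1 above the lowest point in between, and 22 of the 92 that peaked at 0 min did so. In both groups most of these second tops fell at 301 to 345 min, within the last 4 samples, and that of YGP1 fell at 194 min. The counts were not made without these samples. In the fitted curves the second rise was 2.20 for RNR1 and 1.32 for POL30, both at 227 min, and 1.62 for CLN2 at 251 min. The second tops of the chaperones SSA1 (2.40), SSA2 (2.32) and HSP82 (1.60) and of PHO84 (3.07) came later, at 301 to 325 min, within the last 4 samples.

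In most metabolic lists the share of varying genes was above the 8.30% of all genes, on 5 or fewer genes per list. Of 23 iron uptake genes 4 varied. They were led by the siderophore transporter ARN2 (range 2.83), the ferroxidase FET3 (2.72) and the transporter ARN1 (2.72), all peaking at 251 min. ARN2 stood between 1.30 and 2.73 at 176 and from 218 to 260 min, at 0.28 at 194 min, and between -0.15 and 0.66 up to 152 min. FET3, ARN1 and ARN2 did not pass without the samples from 176 to 260 min (limma adjusted p = 0.15, 0.79 and 0.17), and 0 of 23 varied then. Of 35 respiratory chain genes 3 varied, a share near that of all genes. Of 34 amino acid biosynthesis genes 5 did, of 16 phosphate genes 3, of 16 hexose uptake genes 3, and of 23 sulfate and methionine genes 0. Without the samples from 284 min on the counts in these 5 lists were 2, 1, 1, 0 and 0, and without those from 176 to 260 min 0, 3, 0, 1 and 0. Phosphate had 1 without the 194 min sample. In the stress and reserve carbon list 5 of 27 varied, and 0 did without the samples from 284 min on. INO1, the inositol-phosphate synthase of lipid synthesis, was between 0.72 and 1.61 up to 63 min and reached 4.34 at 194 min (adjusted p = 0.0095). It did not pass without 176 to 260 min (0.31), with a slide series term (0.65) or after quantile normalization (0.067).

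The last 4 samples carried a step. In 179 of 6172 genes (2.90%) all values from 284 to 345 min lay above all 12 earlier ones, and in 177 (2.87%) they lay below. In the other 8 strains the same count was 1 to 22 genes above and 1 to 12 below. Genes above were 11 of 27 in the stress and reserve carbon list, 7 of 34 in amino acid biosynthesis and 6 of 24 in the daughter and wall list. Genes below were 21 of 137 ribosomal protein genes, 11 of 36 ribosome biogenesis genes and 6 of 35 respiratory chain genes. With a gap of at least 1, QDR2, the amino acid permease AGP1 and the oligopeptide transporter OPT2 were above, and YIL082W and YIL080W, both of the Ty3 list, were below. AGP1 stood at 2.34, 0.92, 2.01 and 1.19 in the last 4 samples, against -2.03 to -0.70 before. PGM2, a phosphoglucomutase of glycogen and trehalose metabolism, stood at 1.80, 1.61, 1.54 and 3.18, against -0.58 to 0.85 before (limma adjusted p = 0.0036; 0.11 without 345 min).

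The second question was how this time course compares with the mean of the other 8 strains. Of the 512 genes, 130 (25.4%) had their fitted peak at the same sampled time in the mean curve of the others, 116 peaked earlier in YPS2067 and 266 later, with a median difference of 15 min. The mean curve of the others was flatter, with a median range of 0.54 against 1.53 in YPS2067, so its peak times are less sharply defined. By window, 77 of the 92 genes that peaked at 0 min did so in the others, as did 61 of the 88 at 24 to 63 min. The share was lower later: 10 of 36 at 135 to 152 min, 17 of 59 at 176 to 227 min and 107 of 237 at 251 to 345 min. Peaks of both curves were read at the 16 times of YPS2067, which has no sample at 87 or 111 min. Of the 512, 247 varied in none of the other strains, which had between 9 (YPS2060) and 422 (YPS2066) varying genes of their own. The overlap with YPS2055 was 130 genes, 25.4% of the 512 and 61.0% of the 213 that varied in YPS2055. With YPS2066 it was 33.8% of the 512 and 41.0% of the 422, with YPS183 13.7% and 37.2% of 188, and with YPS2073 10.5% and 14.8% of 364.

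Over the 12 times shared by all strains, the 214 genes of the cell cycle lists had a median correlation of 0.43 with the mean of the other 8, and 177 were above 0. The same median was between 0.09 in YPS2073 and 0.51 in YPS2055 when each other strain was set against the rest. The strains share the reference channel, so these values describe likeness and carry no test. Among single genes r was 0.94 for AGA1, 0.91 for FIG1, 0.84 for CDC5, 0.82 for CLB2, 0.79 for CLN2 and 0.72 for CHS2. It was -0.50 for DSE1 and -0.26 for both CTS1 and the cytochrome gene CYC1. The G2/M list mean of the other strains had fitted peaks at 135 min in YPS2073, 194 min in YPS183 and YPS2055, 218 min in YPS2060, YPS2079 and YPS3137, 301 min in YPS2066 and 345 min in YPS3060, against 176 min in YPS2067. The G2/M peak of YPS2067 was itself at 152 to 260 min depending on the samples kept.

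At single times several cycle genes of YPS2067 lay outside the range of the other strains. At 48 min RNR1 stood at 2.32 in YPS2067, above all 8 others (mean 0.71, -0.14 to 1.90), and at 176 min it stood at -1.62, below all 8 (mean -0.21). At 24 min RNR1 was -0.90, against a mean of 0.89 in the others, of which 1 was lower. HTB2 at 135 min stood at 1.86, above all 8 others (mean 0.71, -0.28 to 1.10), and at 218 min at -1.15, below all 8 (mean 0.05). CHS2 at 135 min was -1.34, below all 8 others (mean 0.16, -1.12 to 1.08), and at 176 min it was 1.85, above all 8 (mean 0.54, -0.06 to 1.02). CLB2 was likewise below all 8 others at 135 min, where their mean was 0.70, and above 7 of 8 at 176 min (2.11 against a mean of 0.88). CLN3 at 218 min was 2.34, above all 8 (mean 1.12, 0.24 to 1.97).

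The histone mean at 135 min was 2.00 in YPS2067 and 0.98 in the others (0.48 to 1.37). The G2/M mean at 176 min was 0.43 in YPS2067 and 0.05 in the others (-0.09 to 0.27), and at 135 min it was -0.23, below all 8 others. The pheromone mean at 0 min was 1.04 in YPS2067 and 0.43 in the others (-0.33 to 1.26). In the number of values outside the range of all other strains, YPS2067 was not extreme. Over all genes and the 12 shared times, 75 single values lay at least 1 outside, against 43 to 1740 for each other strain treated the same way. A gene outside at several times counts at each. These single-time comparisons set 1 sample against 8 and carry no test. The median scatter around the curves was 0.18 in YPS2067 and 0.15 to 0.28 in the other strains. Other measures over all genes set YPS2067 further apart. The late step took in 179 genes above and 177 below, against at most 22 and 12 in any other strain. The median correlation with the mean of the rest over all genes was 0.11, and only YPS2073 (0.055) was lower.

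The third question was whether genes differed in level, the fitted mean over the 12 shared times. By adjusted p under 0.05 and a difference of at least 1, 0 genes were higher in YPS2067 (0%) and 1 was lower (0.0162%), while 1283 genes (20.8%) had an unadjusted limma p under 0.05. The 1 gene, YMR194CA, which has no annotated role in the tables used, had a level of -1.85 in YPS2067 and -0.75 in the others (difference -1.10 ± 0.13 SE, limma adjusted p = 2.7e-09). It did not pass with 1 mean per strain, where 1 of the 8 others was lower than YPS2067, or with a slide series term (adjusted p = 0.061). Whatever the size, 232 genes were higher (3.76%) and 236 lower (3.82%). The p-values rest on scatter around curves, and with 1 mean per strain 0 genes passed.

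Among these smaller differences, the stress gene HSP12, a membrane-bound chaperone, was lower in YPS2067 (0.20, against 1.19 in the others, difference -0.99 ± 0.23 SE, limma adjusted p = 0.0028). Its samples lay between -0.39 and 0.64 except at 194 min, where it read 2.22. At 218 min it stood at -0.31 in YPS2067 and at 0.87 to 2.36 in the others. Its strain mean was the lowest of the 9. The call was lost without the 0 min sample (adjusted p = 0.14) and without those from 284 min on (0.085), at differences of -0.96 and -0.75. INO1 was higher (2.63 against 1.64, difference 0.99 ± 0.23, adjusted p = 0.0031), as was the polyamine exporter TPO4 (2.36 against 1.51, difference 0.85 ± 0.16, adjusted p = 0.00033), and each had the highest strain mean of the 9. INO1 lost its call without the 0 min (0.16) or 345 min sample (0.13) or the samples from 176 to 260 min (0.32), at 0.94, 0.81 and 0.50. The wall protein SED1 (0.87 ± 0.21) and the subtelomeric helicase frames YBL113C (0.96 ± 0.23), YHL050C (0.88 ± 0.19) and YRF1-1 (0.87 ± 0.21) were also higher. Probes of the helicase copies cannot be told apart. Without the 0 min sample the adjusted p of SED1 was 0.15 and those of the 3 frames 0.37, 0.22 and 0.43. With a slide series term none of HSP12 (adjusted p = 0.73), INO1, TPO4 (both 0.999), SED1 (0.90), YBL113C (0.86), YHL050C or YRF1-1 (both 0.73) passed.

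Ribosomal protein genes were the list with most level calls. Of 137 measured genes, 62 were lower in YPS2067, against 3.82% of all genes, and 0 higher at an adjusted p under 0.05 by limma, with a median difference of -0.34, where that of all genes was 0.0020. RPS3 (-0.66 ± 0.12 SE, adjusted p = 0.00024) and RPS13 (-0.65 ± 0.13), both of the small subunit, were examples. The difference lay in certain times. The list mean was -0.38, -0.10, -0.61 and -0.45 at 284, 301, 325 and 345 min in YPS2067, below all 8 others each time, whose means were 0.31, 0.58, 0.48 and 0.55. It was also lower at 63 min, at -0.32 against 0.43. At 176 min the order was turned, with 0.55 in YPS2067 and 0.13 in the others. Of the 137 genes, 126, 130, 130 and 134 lay below the mean of the others at the last 4 times, against 14 at 176 min. Without the samples from 284 min on, 0 of 137 were lower by the adjusted p (median -0.08), while 131 of all genes were higher and 100 lower. Without the 0 min sample 4 of 137 were lower (18 of all genes higher and 14 lower). With a slide series term or with 1 mean per strain 0 of 137 passed, at medians of -0.40 and -0.30. Near-identical ribosomal gene pairs cannot be told apart by their probes.

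Other lists had few level calls. Over all genes 3.76% were higher and 3.82% lower. In amino acid biosynthesis 5 of 34 were higher and 0 lower, such as ILV3 of the branched-chain pathway (0.58), ARG4 of arginine synthesis (0.52) and TRP5 of tryptophan synthesis (0.51). In hexose uptake 2 of 16 were higher, the transporters HXT1 (0.72) and HXT4 (0.60), and 2 without the samples from 284 min on. In the respiratory chain 1 was higher, the NADH dehydrogenase NDI1 (0.45), and 3 of 35 lower, such as the cytochrome oxidase subunit COX13 (-0.45). Without the samples from 284 min on the counts were 1 higher and 1 lower in amino acid biosynthesis and 2 higher and 0 lower in the respiratory chain, where the median difference was then 0.17, against -0.04 with them. Without those from 176 to 260 min the respiratory chain had 0 higher and 5 lower. Leaving out the 0 min sample gave 1 higher and 0 lower in amino acid biosynthesis, and 0 of either in hexose uptake and in the respiratory chain. Of all genes 18 were then higher and 14 lower. With a slide series term or 1 mean per strain 0 genes of these lists passed. Each cell cycle list had at most 1 gene higher and at most 1 lower, such as CLN3 (0.32) and the B-type cyclin CLB5 (-0.37). The cell cycle lists had 0 level calls without the 0 min sample, with a slide series term or with 1 mean per strain.

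**Figure D5:**
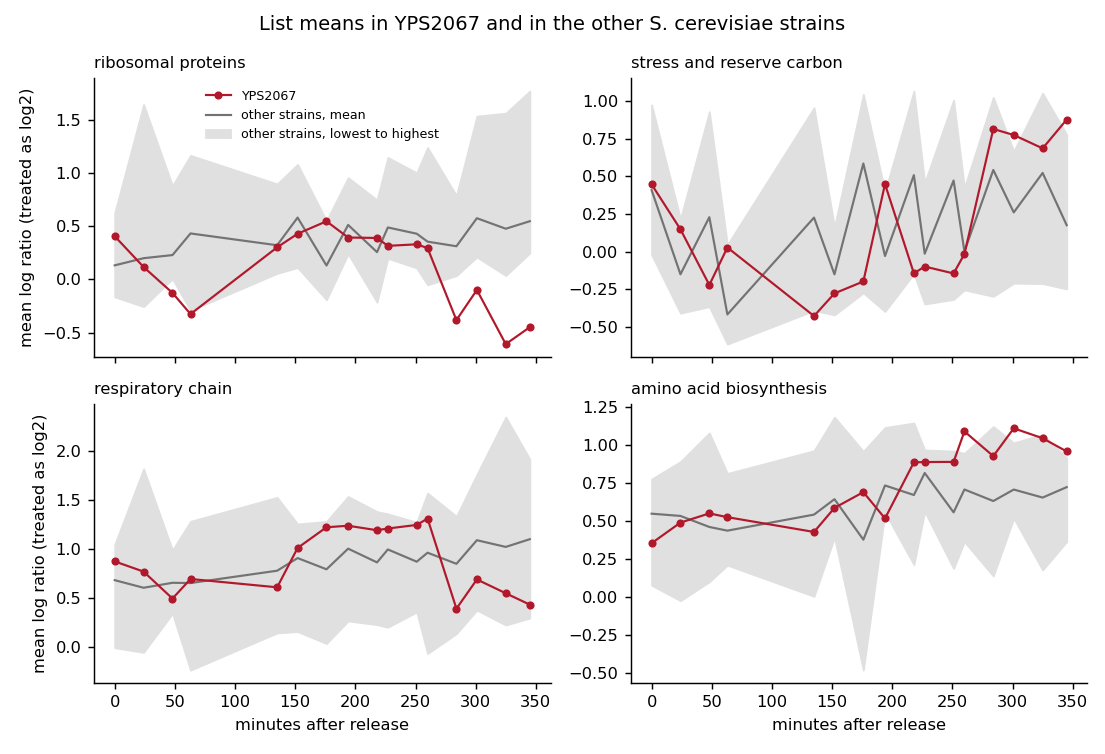
Mean log2 ratio of the ribosomal protein, stress and reserve carbon, respiratory chain and amino acid biosynthesis lists (y axes) against minutes after release in YPS2067 (red), with the mean (grey line) and range (grey band) of the other strains. From 284 min on the ribosomal protein mean of YPS2067 lies between -0.61 and -0.10 and below the grey band, whose mean is 0.31 to 0.58.

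The fourth question was whether genes differed in shape, the curve with the level removed. By adjusted p under 0.05 and a largest deviation of at least 1, 78 of 6172 genes did (1.26%), and 200 did by the adjusted p alone (3.24%). The largest deviation fell at 345 min in 36 of the 78 genes and at 325 min in 11. It fell at 48 min in 9, at 0 min in 6 and at 176 min in 6. At 345 min it was upward in YPS2067 in 29 and downward in 7. Without the samples from 284 min on 15 genes were called, 14 of them among the 78. Without the 345 min sample alone the count was 27.

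The early differences included 3 a-cell genes. MFA2 deviated by 1.57 and MFA1 by 1.70, both at 48 min in the fitted curves (limma adjusted p = 0.020 and 0.027). At 24 min MFA2 stood at 2.02 in YPS2067, above all 8 others (mean -0.32, -1.48 to 0.68), and at 63 min at 1.13, above all 7 others sampled (mean -0.91). MFA1 at 24 min was 1.44, above all 8 others (mean -0.16). AGA2 deviated by 1.50 at 0 min (adjusted p = 0.015), with 1.01 in YPS2067 and a mean of -0.15 in the others, of which 7 of 8 were lower. These 3 a-cell genes and OLE1 were among the 15 genes called without the samples from 284 min on, with deviations at the same times of 1.69 for MFA2, 1.73 for MFA1, 1.36 for AGA2 and 1.85 for OLE1. In that fit the largest deviation of MFA2 was downward, -1.72 at 260 min. Single samples decided some of the calls: without 63 min the adjusted p was 0.13 for MFA2 and 0.16 for MFA1, and without 24 min 0.092 and 0.11. Without 0 min that of AGA2 was 0.088. OLE1 deviated by 1.45 at 48 min (adjusted p = 0.0076; 0.67 with a slide series term). At 24 min it was 2.42, above all 8 others (mean 0.37), and at 176 min -1.67, below all 8 (mean 0.09).

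Of the 214 genes of the cell cycle lists 6 differed in shape (2.80%), against 1.26% of all genes. This count and those by list were not made without the samples from 284 min on, when MFA2 was still called and CDC5 was not. In the replication, histone, S and G2 and early cell cycle box lists 0 of 45, 9, 34 and 11 were called, with 1, 0, 0 and 2 by the adjusted p alone. In the pheromone list 1 of 27 and in the budding and wall list 2 of 30 were called. In the daughter and wall list 1 of 24 was called, MFA2, given above as an a-cell gene, and in the G2/M list 2 of 36. Those of G2/M were PHO3, an acid phosphatase, and CDC5, with a deviation of -1.17 at 0 min (limma adjusted p = 0.042; between 0.051 and 0.13 without any 1 of 12 samples, 0.23 without those from 284 min on) and a value at 176 min of 1.29, above all 8 others (mean 0.24). GAS3, outside that list, deviated by -1.19 at 48 min (adjusted p = 0.049; between 0.051 and 0.20 without any 1 of 12 samples, 0.12 without those from 284 min on). It stood at -1.24 there, below all 8 others (mean -0.41), and at 1.12 at 135 min, above all 8 (mean 0.26). AAD4 deviated by 1.10 at 176 min (adjusted p = 0.0048). It passed whichever single sample or strain was left out, but not without the samples from 284 min on (0.48). At 135 min it was 2.43, above all 8 others (mean 0.73), and at 345 min 0.14, below all 8 (mean 0.67).

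The largest late differences were in transporters and Ty frames. QDR2 deviated by 2.72 at 325 min (limma adjusted p = 4.0e-07). It passed whichever single sample or strain was left out, but not without the samples from 284 min on (0.40). At 284 min it was 2.34, above all 8 others (mean -0.71, -2.35 to 0.99), and at 260 min -3.19, below all 8 (mean -1.14). OPT2 at 345 min was 2.73, above all 8 others (mean -0.39), with a deviation of 2.40 (adjusted p = 0.0056; 0.14 without 345 min and 0.061 with a slide series term). The urea transporter DUR3 stood at 1.74, 0.96, 1.93 and 3.26 in the last 4 samples, against -0.30 to 0.13 before. Its deviation was 2.65 (limma adjusted p = 0.019, 0.59 without 345 min and 0.064 without 325 min). From 284 to 345 min its median in YPS2067 was 1.84, below the highest median of another strain (2.27). LEU2, an enzyme of leucine synthesis, went the other way. It stood at 4.63 at 260 min, above all 8 others (mean 2.23), and at -0.21 at 284 min, below all 8 (mean 1.87), with a deviation of -1.78 (adjusted p = 0.0022; 0.31 with a slide series term). Without the samples from 284 min on LEU2 was still called, but with an upward deviation of 1.77 at 260 min (adjusted p = 0.045). CYC1 was 2.94 at 260 min and 0.62 at 345 min, where the mean of the others was 2.21 (deviation -1.56, adjusted p = 0.027; 0.28 without 345 min, 0.11 without 325 min).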

How the data were processed

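Each sample was hybridised against the common reference on 2-colour spotted oligonucleotide arrays. Per the labels, the authors merged the dye-swapped arrays of a sample, and the deposited table has 1 column of ratios per sample, taken here to be log2. The normalization steps are not given in the sources used; log base, scale and centring stay unknown, the direction is likely sample over reference, and sample medians are near 0. The table held 6172 genes and 7 columns that matched no sample and were not used. Gene names come from RefSeq (assembly R64), which held 5554 IDs as written and 192 more once a lost hyphen was put back; 426 keep the file's name. No sequence was used here. The 2 arrays per YPS2067 sample limit the precision; signal over background was not analysed here.

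Curves were fitted with limma 3.58.1 in R 4.3.3 in 1 model of all samples: a mean for each strain plus its own natural spline over time (7 degrees of freedom), leaving 93 residual degrees of freedom. Tests were made for variation over time in YPS2067, and for its level and its shape against the mean of the other 8 strains over 12 shared times (0, 24, 48, 135, 176, 218, 251, 260, 284, 301, 325 and 345 min). Calls needed a Benjamini-Hochberg adjusted p under 0.05 and a size of at least 1. All YPS2067 arrays are 2007 prints. The rest used Python 3.11.15, numpy 2.4.6, pandas 2.3.3 and matplotlib 3.10.9. Simulated data of 6172 genes had independent noise around flat strain means, with YPS2067 set to the mean of the other 8. A smooth course was then planted in 100 genes and a level shift in 100 others. Of each 100, 98 were recovered for variation, 100 for level and 97 for shape, with 4, 0 and 2 false calls by adjusted p and size. The simulation held no late step, no slide series and no level of YPS2067's own, so its false calls do not carry over to the calls made here.

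The members, lists and tests were chosen with earlier results of these data known. The rule for named genes takes the landmarks of each wave, the 4 widest ranges in each peak window, the 6 largest level differences each way among genes past the adjusted p, the 12 largest shape deviations, and up to 4 members of each list with the widest range. List members beyond these are named beside their list's count. Alternatives covered the spline, prints, sampling sets, slide series, quantile normalization, values beyond 8, 1 mean per strain, a time block, and samples or strains left out. Those on slide series for level and shape and on blocks of samples were added after seeing the data. Other samples share a sampling time, not a culture, with YPS2067, so the time block pairs nothing but the clock.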

Additional observations from a re-analysis of the deposited data

Results flagged for a closer look

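These results stand here because the curve of YPS2067, with its level removed, differed from the mean curve of the other 8 strains in the limma test of the difference itself (Benjamini-Hochberg adjusted p under 0.05) by at least 1. They numbered 78 genes, and values are YPS2067 minus the others at the time of the largest deviation.

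The 12 widest deviations were all at 325 or 345 min. Ty element frames deviated upward at 325 min, YDR098C-A by 3.34, YMR045C by 3.20 and YDR365W-A by 2.89, while YIL080W deviated by -2.86. Probes of Ty copies cannot be told apart. QDR2 deviated by 2.72, INA1 by 2.71, DUR3 by 2.65 and OPT2 by 2.40. The unnamed frames YCL042W, YHL049C, YPR203W and YFL064C deviated by 2.38, 2.32, 2.22 and 2.17 at 345 min. INA1 lay between -1.99 and -0.26 from 284 min on in YPS2067, against -3.96 to -1.93 in its earlier samples.

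Among members of the gene lists, the late deviations were -1.78 for LEU2 (1.77 at 260 min without the samples from 284 min on), -1.56 for CYC1, -1.08 for QCR7 of the respiratory chain, -1.18 for RPS24A, -1.02 for RPS24B, 1.23 for the polyphosphate polymerase subunit VTC2 and 1.01 for SST2. RPS24A stood at -1.05 at 345 min in YPS2067, below all 8 others (mean 0.45, 0.01 to 1.70).

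At earlier times the deviations were 1.70 for MFA1, 1.57 for MFA2, 1.45 for OLE1 and -1.19 for GAS3 at 48 min, 1.50 for AGA2, -1.37 for UTR2 and -1.17 for CDC5 at 0 min, and 1.10 for AAD4 at 176 min. The siderophore transporters ARN1 and ARN2 deviated by 1.30 and 1.28 at 251 min, in the samples on the other slide series. UTR2 stood at -0.52 at 24 min, below all 8 others (mean 0.91, -0.45 to 1.72). Its call was lost when any of several single samples was left out (adjusted p = 0.18 without 0 min). SST2 likewise lost its call without the 345 min sample (0.15), and ARN1 and ARN2 without the 260 min sample (0.11 and 0.13).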

How the results depend on the processing

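Counts of called genes moved widely. For level, and at the time of its largest deviation where that time was kept, 0 named genes changed direction under the alternatives run. Genes deviating most at 325 or 345 min could not be compared this way without the samples from 284 min on. In that fit the largest deviation itself moved to another time and turned in 2 genes still called: LEU2 (1.77 at 260 min) and MFA2 (-1.72 at 260 min). Among genes no longer called it turned in some, such as QDR2 (-1.43) and YMR045C (-3.60), both at 260 min. In others it kept its direction, such as DUR3 (0.10) and RPS24A (-0.49), both at 48 min. All-gene level calls were 232 higher and 236 lower, against 131 and 100 without those samples and 18 and 14 without 0 min. Genes varying in YPS2067 numbered 512, against 1051 on 2007 prints alone, 941 with YPS2067 fitted alone, 865 with a term for the sampling set, 263 with a slide series term, 279 without its samples from 284 min on, and 357 (without 0 min) to 487 (without 194 min) when 1 sample was left out. Level calls of size 1 numbered 1, against 5 on 2007 prints, 2 after quantile normalization, 0 with a slide series term, 0 with 1 mean per strain, 13 and 19 in sampling sets A and B, 12 outside 176 to 260 min, 13 without the samples from 284 min on, 21 without those at 176 to 260 min, and 1 to 10 (the highest without YPS183) when 1 sample or strain was left out. Level calls of any size numbered 468, against 892 on 2007 prints, 1 with a slide series term, 0 with 1 mean per strain, 231 without the samples from 284 min on, and 32 (without 0 min) to 629 (without YPS3060) when 1 sample or strain was left out. With sampling time as a replicate block there were 3 level calls of size 1 and 175 of any size; the samples share only the time. Shape calls numbered 78, against 152 with 5 degrees of freedom, 248 on 2007 prints, 196 with a sampling set term, 29 with a slide series term, 15 without the samples from 284 min on, and 27 (without 345 min) to 138 (without YPS3060) when 1 sample or strain was left out. Set against the order of the main fit, 13 to 15 of the 15 pairs of the 6 cycle lists kept their order when 1 sample was left out. This count measures stability of that order only. Without the samples from 284 min on, the early cell cycle box list peaked at 218 min, the daughter and wall list at 227 min and G2/M after both, at 260 min. With a slide series term the early cell cycle box and the daughter and wall lists were tied at 227 min. The cause of these shifts was not tested beyond the samples, strains or terms that each alternative changes. Of the single-gene repeats, 2735 kept their side of the threshold, 620 lost a call and 13 gained one. Lost and gained together, 72 changed with the slide series term and 49 without 345 min. The slide series term, by construction, also takes up any course over time that separates 176 to 260 min from the rest.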
